A study of Oryza sativa with 6 samples.

Results

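The loci described here encode the cell cycle machinery and the histones of rice. They were chosen by product name in the deposited expression table: cyclins of the A, B, D, T, P and U types, cyclin-dependent kinases with their inhibitors and regulatory subunit, cell division control proteins, and histones H1, H2A, H2B, H3 and H4. A locus also had to reach 1 FPKM (fragments scaled to transcript length and to library size) in at least 1 library. Of 73 loci with such a name, 65 passed, out of 35500 loci in the table and 23787 that reached 1 FPKM. They comprise 43 cell cycle loci, 20 core histone loci, 1 linker histone H1 locus and 1 chaperone of the histone variant H2A.Z, which the name rule also caught. No U-type cyclin was among them.

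Cyclins bind cyclin-dependent kinases (CDKs) and set when these act. In plants, D-type cyclins with CDKA open the way into S phase by inactivating the retinoblastoma-related repressor of E2F factors, A-type cyclins act from S phase onwards, and B-type cyclins with the plant-specific CDKB drive mitosis. Histones package DNA, and those made for newly replicated DNA are produced mainly in S phase, so their transcripts mark replicating cells. The core histone loci below also include the replacement histone H3.3, and the only other H3 loci are named H3.v1 or centromeric. Core histone sums are therefore not sums of S-phase histones alone. Plant histone transcripts carry poly(A) tails and are therefore captured in poly(A) libraries. The mesocotyl, the segment between seed and coleoptile, lengthens in darkness through cell division near its upper end and cell elongation below it, and its growth is inhibited by light.

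The mesocotyls came from seedlings of the indica rice cultivar P25. Dark-grown seedlings were sampled at 1, 3 and 5 days after sowing. Others were kept 5 days in darkness, then moved into light and sampled at 30 min, at 60 min and at 24 h. Every light group thus shares the 5 days of darkness. The 24-h group was also 24 h older than the 5-day dark group, and no dark library of that age is among the 6. Light and age cannot be told apart in that comparison. Each of the 6 groups is 1 RNA pool sequenced as 1 library, the number of seedlings per pool is not given in the sources used here, and no difference below has a replicate check or a p-value. Differences are log2((FPKM + 1)/(FPKM + 1)), and a locus is counted as higher or lower at 2-fold or more on that scale. In such bulk RNA, fewer dividing cells and less RNA per dividing cell cannot be told apart.

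Libraries summed to between 336212 and 359808 FPKM, and in the 3-day dark library a single locus held 14.9% of all FPKM. The 1-day dark and 60-min light libraries stood apart from the other 4 in markers of the shoot surface. Protodermal factor 1 (ZS01g0106400), a gene of the outermost cell layer, was at 17.1 FPKM at 1 day of darkness and 65.3 FPKM after 60 min of light, and listed at 0 in the other 4 libraries. The 25 epidermis marker loci summed to 891, 343 and 431 FPKM at 1, 3 and 5 days of darkness and 395, 1399.5 and 884 FPKM at 30 min, 60 min and 24 h in light, with 1 to 5 of them listed at 0 per library. At 24 h, a single lipid-transfer protein locus (ZS05g0568900) gave 457 FPKM of that sum. The 9 leaf and photosynthesis marker loci summed to 61.3, 21.1 and 189.6 FPKM at 1, 3 and 5 days of darkness and 26.2, 839 and 42.7 FPKM at 30 min, 60 min and 24 h in light. Root markers, 6 loci, summed to 1217, 361 and 107 FPKM at 1, 3 and 5 days of darkness and 238, 105 and 216 FPKM at 30 min, 60 min and 24 h in light. The sum at day 1 rested on a pair of cortical cell-delineating protein loci (ZS10g0446300 at 854 FPKM and ZS10g0444600 at 350.4 FPKM), and the median of the 6 was 6.32 FPKM at day 1, against a highest of 30.1 FPKM after 30 min of light. Knotted-type shoot meristem markers (6 loci) summed to between 59.6 and 92.7 FPKM, vascular markers (7 loci) to between 76.4 and 265 FPKM, and seed storage markers (4 loci) to between 10.1 and 35.5 FPKM. Counts over all the loci, and those of several classes, that rest on the 1-day dark or 60-min light library are therefore set beside counts that use neither. No list of genes defining the mesocotyl alone was used, so the tissue label itself was not checked.

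As a group, the loci were lowest at 3 days of darkness and highest after 60 min of light. Their FPKM values summed to 1774, 1036 and 1687 FPKM at 1, 3 and 5 days of darkness and 1992, 3194 and 2203 FPKM at 30 min, 60 min and 24 h in light. The highest value of a locus fell in the 60-min light library for 34 of 65 loci, or 52.3%, against 25.2% of all 23787 loci, and in the 3-day dark library for none of the 65, against 7.02% of all loci. The lowest value fell in the 3-day dark library for 38 of 65 loci, or 58.5%, against 27.4% of all loci. Core histones made up 0.273%, 0.140% and 0.229% at 1, 3 and 5 days of darkness and 0.323%, 0.677% and 0.395% at 30 min, 60 min and 24 h in light of all FPKM. The 3-day value includes an H4 locus (ZS09g0414200) listed at 0 there, against 116 and 143 FPKM at 1 and 5 days of darkness.

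**Figure D1:**
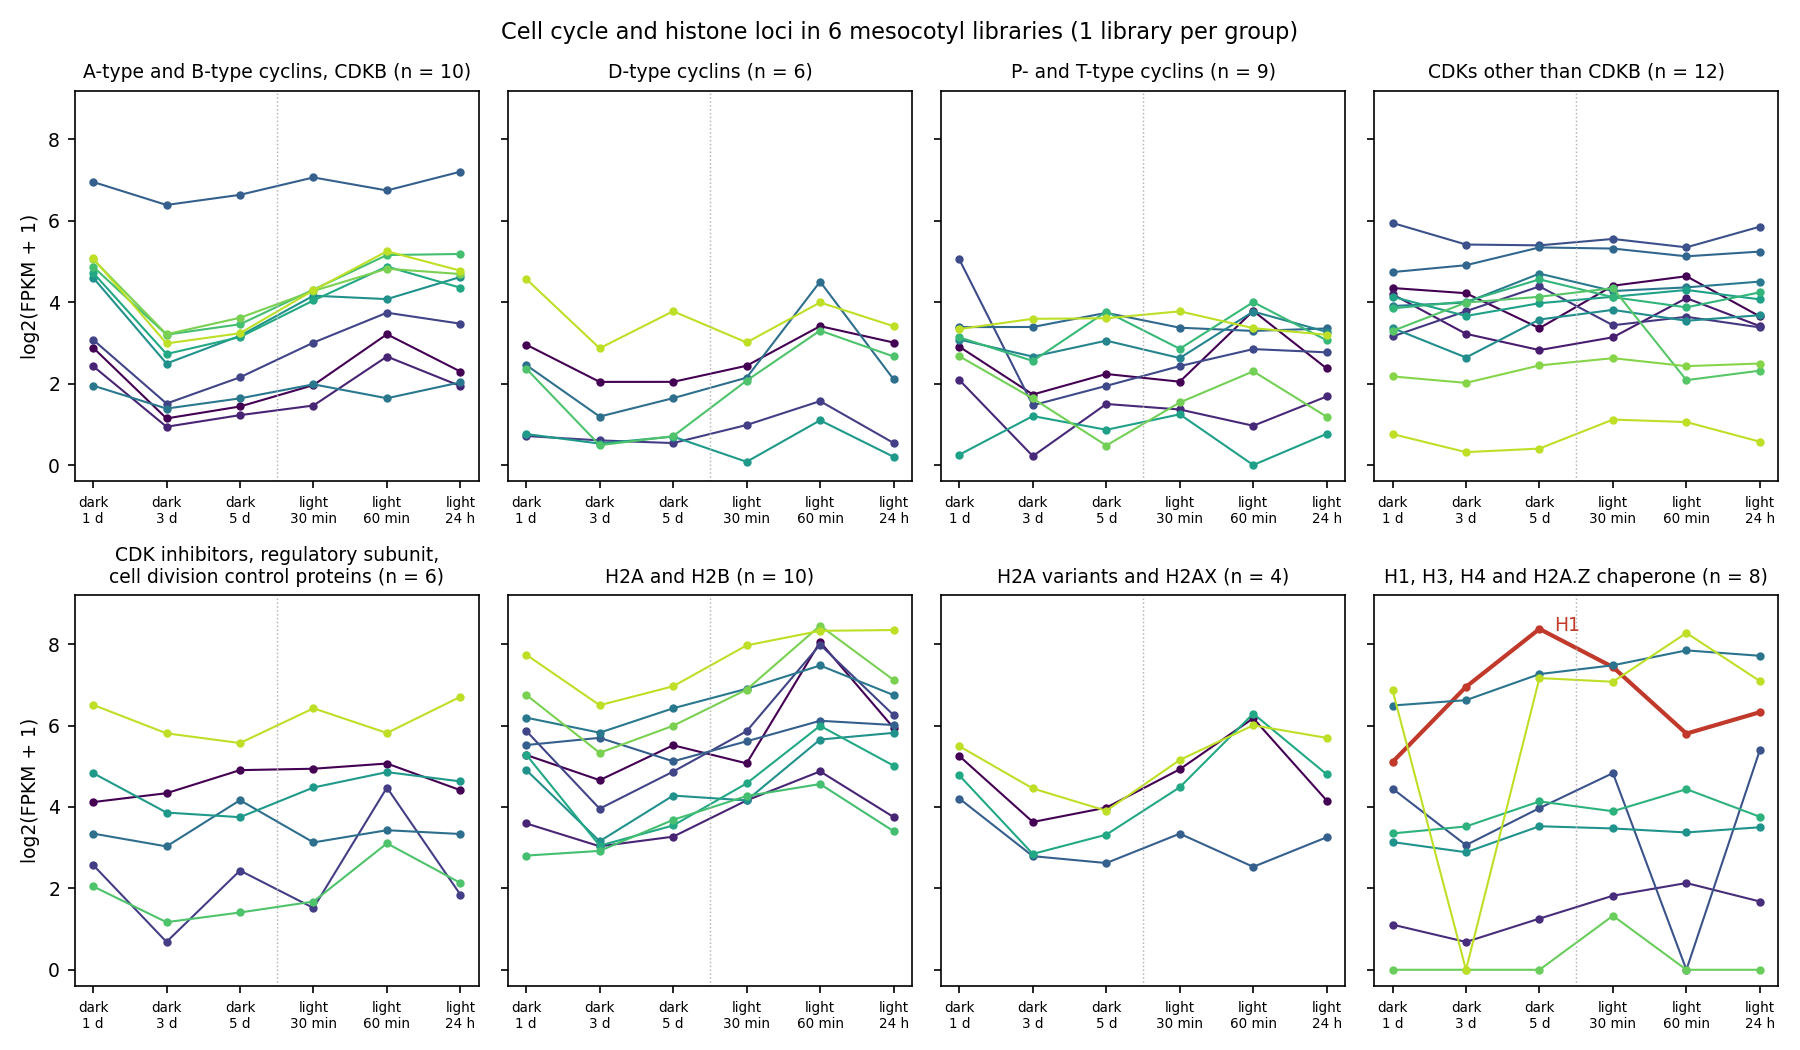
Levels of the 65 loci in the 6 libraries on the log2(FPKM + 1) scale, 1 line per locus and 1 panel per class, with colours only to tell loci apart and the dotted line between dark and light libraries. All 10 A-type and B-type cyclin and CDKB loci have their lowest point at 3 days of darkness. After 60 min of light, 6 of 7 H2A and 2 of 3 H2B loci are at least 2-fold higher than in 5-day darkness (background 14.8%). Histone H1 (red) is at 54.8 FPKM after 60 min of light, against 331 FPKM in 5-day darkness.

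At 3 days of darkness, 27 of 65 loci were at least 2-fold lower than at 1 day, where 14.5% of all loci were lower, and 1 was higher, where 13.5% of all loci were. The lower loci were 16 of 43 cell cycle loci and 11 of 20 core histones, and the higher one was histone H1. The median log2 difference was -0.70 over the 65 loci and -0.03 over all loci. Of the 25 epidermis markers 12 were lower and 4 higher in the same comparison, leaf markers were lower at 2 of 9 and higher at 0, root markers were lower at 2 of 6 and higher at 1, and their part in the result was not tested. With 5 days in place of 3 days set against 1 day, 18 loci were lower (background 11.4%) and 2 were higher (background 23.4%).

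Between 5 and 3 days of darkness few members differed by 2-fold. At 5 days, 7 of 65 loci were higher than at 3 days, against a background of 14.5%, and 1 was lower, against 4.79%. The median was 0.43 over the members and 0.27 over all loci, and scaling each library by the median ratio of loci brought that of all loci to 0.00 and the member counts to 4 higher and 2 lower. Leaf markers were higher at 6 of 9 and epidermis markers at 4 of 25 in this comparison, and their part in it was not tested. The higher loci included CDK inhibitor 6 (ZS09g0326100), CDK inhibitor 4 (ZS10g0367900), histone H1 and a histone H4 locus whose 3-day value was listed at 0.

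After 30 min of light, 9 of 65 loci were higher than in 5-day darkness (background 9.49%) and 1 was lower (background 11.4%). With a higher share of 13.8%, the count of 2-fold differences lay near the background, but the member median was 0.40 against 0.00 over all loci, and 0.79 for the core histones. The epidermis markers had a median of -0.04 here, with 1 of 25 higher and 4 lower, while of the 9 leaf markers 0 were higher and 6 lower (median -2.35), and their part in the result was not tested. After 60 min, 30 of 65 loci were higher than in 5-day darkness (background 14.8%) and 3 were lower (background 12.8%), with a median of 0.90 against 0.01 over all loci. The higher loci were 18 of 43 cell cycle loci and 12 of 20 core histones. Epidermis markers were higher at 12 and lower at 5 of 25 loci and leaf markers higher at 7 and lower at 1 of 9 in that comparison, and their part in it was not tested.

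The comparison of 24 h of light with 5-day darkness uses neither library in which protodermal factor 1 was listed above 0. This comparison also holds a difference in seedling age. In it, 16 of 65 loci were higher (background 11.6%) and 3 were lower (background 14.4%), with a median of 0.42 against 0.00 over all loci. The higher loci were 8 cell cycle loci and 8 core histones. Epidermis markers were higher at 4 loci and lower at 4. Leaf markers were higher at 0 and lower at 4 of 9, among them a Rubisco small chain locus (ZS12g0195100) at 0.430 FPKM after 24 h, against 124.8 FPKM in 5-day darkness, and their part in the result was not tested. Set against 60 min of light, the 24-h library had 1 locus higher (background 10.6%) and 13 lower (background 15.1%), the lower ones being 8 core histones and 5 cell cycle loci. In that comparison 12 of 25 epidermis markers and 8 of 9 leaf markers were lower, and their part in it was not tested. The 3 comparisons with 5-day darkness share that library. With the 3-day dark library in its place, 23, 33 and 23 loci were higher after 30 min, 60 min and 24 h, against 12.9%, 24% and 14.8% of all loci. Lower than at 3 days of darkness were 0 loci at 30 min, 4 at 60 min and 1 at 24 h, against 4.9%, 8.89% and 6.5%. With the 1-day dark library, the counts were 4, 14 and 2, against 19.3%, 18.5% and 17.3% of all loci. Lower than at 1 day of darkness were 5 loci at 30 min, 5 at 60 min and 4 at 24 h, against 8.84%, 5.45% and 8.05%.

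**Figure D2:**
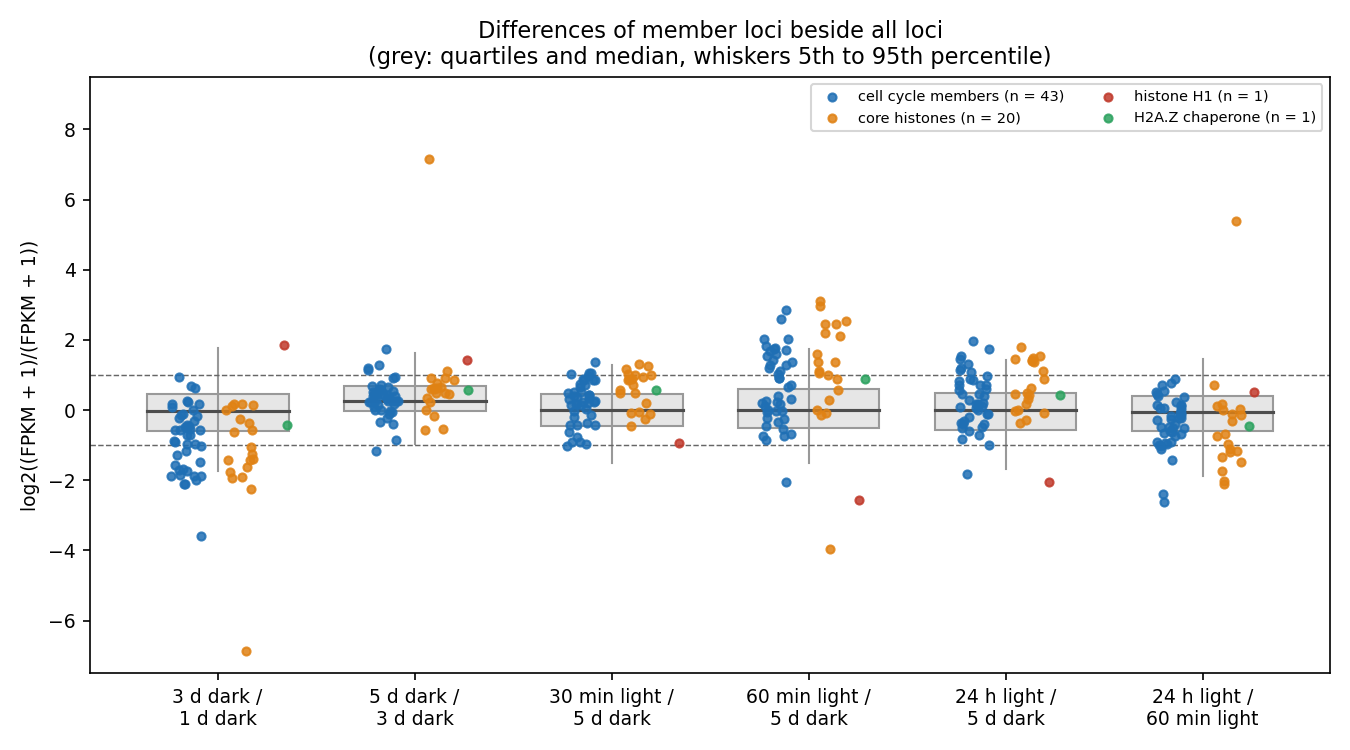
Differences of the 65 loci in 6 comparisons, as log2((FPKM + 1)/(FPKM + 1)), with each group named over the library it is compared with; points are loci, the grey box and line give the quartiles and median of all 23787 loci, whiskers their 5th to 95th percentile, and dashed lines the 2-fold rule. After 60 min of light 30 loci lie at or above the upper dashed line and 3 at or below the lower one, and the most extreme core histone points belong to an H4 locus listed at 0 at 3 days and a centromeric H3 locus listed at 0 after 60 min, where the pseudocount sets the difference.

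Set against the whole range of the 3 dark libraries, members left it mainly after 60 min of light. After 30 min of light 1 of 65 loci lay at least 2-fold above all 3 dark libraries, where 4.57% of all loci did, and it was histone H4.3 at 1.51 FPKM. After 60 min 10 loci did (background 5.53%), comprising 7 core histones, cyclin-D6-1, CDK inhibitor 6 and the cell division control protein 6 homolog. After 24 h 0 of 65 did (background 4.63%). On the lower side, 2 loci lay at least 2-fold below all dark libraries after 60 min, where 0.895% of all loci did, namely cyclin-dependent kinase 12 and the centromeric histone H3, and none did after 30 min or 24 h (background 0.765% and 1.14%). The loci that were higher at 24 h than in 5-day darkness were thus within 2-fold of their highest dark level, which for the 10 A-type and B-type cyclin and CDKB loci was that of day 1.

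Mitotic cyclins and CDKB, the group that acts from S phase to mitosis, held 10 loci, all with their lowest value at 3 days of darkness. Cyclin-B1-5 (ZS05g0510900) stood at 25.5, 5.62 and 7.83 FPKM at 1, 3 and 5 days of darkness and 15.5, 28.3 and 19.5 FPKM at 30 min, 60 min and 24 h in light. Cyclin-B2-2 (ZS06g0665400) stood at 28.3, 8.21 and 9.98 FPKM at 1, 3 and 5 days of darkness and 18.8, 34.7 and 35.4 FPKM at 30 min, 60 min and 24 h in light. Both were low at 3 and 5 days and back at or near the 1-day level after 60 min and 24 h. CDKB2-1 (ZS08g0604500), the kinase of late G2 and mitosis, followed at 32.8, 6.93 and 8.43 FPKM at 1, 3 and 5 days of darkness and 18.6, 37.1 and 26.4 FPKM at 30 min, 60 min and 24 h in light. CDKB1-1 (ZS01g0744300) was at 32.3, 8.27 and 11.3 FPKM at 1, 3 and 5 days of darkness and 18.4, 27.3 and 24.8 FPKM at 30 min, 60 min and 24 h in light. For these 4 loci the log2 differences of 24 h of light over 5-day darkness were 1.21, 1.73, 1.54 and 1.07. Over the 10 loci 6 were higher (background 11.6%) and none was lower in that comparison (median 1.14). After 60 min 7 were higher (median 1.51, background 14.8%). After 30 min 1 was (median 0.76), a share of 10% that lay near the background of 9.49%.

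The A-type cyclins had their highest value after 60 min in 3 of 3 loci, among them cyclin-A2-1 (ZS12g0374800) at 7.45, 1.85 and 3.45 FPKM at 1, 3 and 5 days of darkness and 7.04, 12.4 and 10.1 FPKM at 30 min, 60 min and 24 h in light. The first cyclin-A1-3 locus (ZS01g0132400) was at 8.27 FPKM after 60 min, against 1.71 FPKM in 5-day darkness, and the second (ZS12g0203900 and ZS12g0204000 merged) at 5.34 FPKM after 60 min, against 1.34 FPKM. Among B-type cyclins 4 of 5 were highest after 24 h, for example cyclin-B2-1 (ZS04g0670600) at 23.3, 4.63 and 8.03 FPKM at 1, 3 and 5 days of darkness and 16.9, 15.9 and 23.6 FPKM at 30 min, 60 min and 24 h in light. None of the A-type or B-type cyclins differed by 2-fold between 24 h and 60 min. Cyclin-B2-1 stood at similar levels at 30 min and 60 min, each in 1 library. The locus named cyclin-B1-2-like (ZS02g0693100) was far more abundant and flatter, at 123, 82.8 and 98.5 FPKM at 1, 3 and 5 days of darkness and 133, 106 and 147 FPKM at 30 min, 60 min and 24 h in light. Cyclin-B1-2 (ZS02g0693800), whose identifier lies close to it, stayed between 1.62 and 3.09 FPKM. Neither passed 2-fold in any comparison of light with a dark library or between dark libraries.

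The D-type cyclins, which couple growth signals to entry into the cycle, held 6 loci. Of these, 4 were higher after 60 min of light than in 5-day darkness (median 1.20, background 14.8%). After 30 min 1 was higher (median 0.42, background 9.49%), and after 24 h 1 was (median 0.23, background 11.6%). With 6 loci, these counts of 1 lay near the shares of all loci. Cyclin-D3-2 (ZS09g0023900) had the largest positive difference from 5-day darkness at 30 min and 24 h among all members, standing at 4.17, 0.402 and 0.634 FPKM at 1, 3 and 5 days of darkness and 3.21, 8.87 and 5.35 FPKM at 30 min, 60 min and 24 h in light. Its log2 differences over 5-day darkness were 1.36, 2.59 and 1.96 at 30 min, 60 min and 24 h. Cyclin-D6-1 (ZS07g0457600), a type known in Arabidopsis for formative divisions of the root, was high in a single library, at 4.49, 1.28 and 2.12 FPKM at 1, 3 and 5 days of darkness and 3.42, 21.7 and 3.31 FPKM at 30 min, 60 min and 24 h in light. Cyclin-D3-1 (ZS06g0140500) stood at 6.77, 3.12 and 3.12 FPKM at 1, 3 and 5 days of darkness and 4.42, 9.64 and 7.05 FPKM at 30 min, 60 min and 24 h in light. The most abundant dark-grown member, cyclin-D2-1 (ZS09g0236000), was an exception. It stood at 22.8, 6.30 and 12.7 FPKM at 1, 3 and 5 days of darkness and 7.06, 14.9 and 9.63 FPKM at 30 min, 60 min and 24 h in light, and thus passed 2-fold between 3 and 1 days of darkness but not between light and 5-day darkness. The cyclin-D1-1 (ZS06g0157200) and cyclin-D1-2 (ZS08g0478900) loci reached at most 1.97 and 1.14 FPKM, both after 60 min of light.

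The A-type kinases, partners of the D-type and A-type cyclins, were lowest at 5 days of darkness. CDKA-2 (ZS02g0029900) stood at 19.4, 17.6 and 9.28 FPKM at 1, 3 and 5 days of darkness and 20.2, 23.9 and 11.6 FPKM at 30 min, 60 min and 24 h in light. The CDKA-1-like locus (ZS03g0016900) stood at 17.3, 8.34 and 6.08 FPKM at 1, 3 and 5 days of darkness and 7.80, 16.1 and 9.64 FPKM at 30 min, 60 min and 24 h in light. Both were at least 2-fold higher after 60 min than in 5-day darkness, and neither after 24 h. The regulatory subunit 2 of cyclin-dependent kinases (ZS03g0051300), a docking protein of the kinase, stood at 27.5, 13.5 and 12.4 FPKM at 1, 3 and 5 days of darkness and 21.3, 28.0 and 23.7 FPKM at 30 min, 60 min and 24 h in light.

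The 3 CDK inhibitors, which bind and block cyclin-CDK complexes, each took a course of their own. Inhibitor 6 (ZS09g0326100) stood at 4.97, 0.607 and 4.42 FPKM at 1, 3 and 5 days of darkness and 1.87, 21.2 and 2.59 FPKM at 30 min, 60 min and 24 h in light. Its 60-min value was 2.04 above 5-day darkness on the log2 scale, and its 24-h value -2.63 relative to 60 min. Inhibitor 4 (ZS10g0367900) peaked at 5 days of darkness, at 9.17, 7.17 and 16.9 FPKM at 1, 3 and 5 days of darkness and 7.75, 9.77 and 9.09 FPKM at 30 min, 60 min and 24 h in light. It was the 1 member at least 2-fold lower after 30 min of light (-1.04). Inhibitor 1 (ZS02g0644500), the most abundant, ranged from 16.4 FPKM at 1 day of darkness to 32.5 FPKM after 60 min of light and passed 2-fold in none of the comparisons.

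Kinases of other types, with 10 loci, did not share the course of the mitotic ones. After 60 min of light 0 were higher (background 14.8%) and 1 was lower (background 12.8%) than in 5-day darkness (median -0.13). Between 3 and 1 days of darkness none passed 2-fold (median -0.04, background 13.5% higher and 14.5% lower). With 10 loci, these counts lay near the shares of all loci. The lower locus, cyclin-dependent kinase 12 (ZS08g0047000), a kinase of transcript elongation in animals, stood at 8.80, 14.9 and 16.5 FPKM at 1, 3 and 5 days of darkness and 19.3, 3.24 and 3.99 FPKM at 30 min, 60 min and 24 h in light. It was high in 5-day darkness and at 30 min and low at 60 min and 24 h, with a log2 difference of -1.81 at 24 h. CDKG-1 (ZS02g0480800 and ZS02g0481000 merged) peaked at 5 days of darkness, at 7.93, 12.7 and 19.9 FPKM at 1, 3 and 5 days of darkness and 9.81, 11.5 and 9.42 FPKM at 30 min, 60 min and 24 h in light. The most abundant of the class, CDKF-4 (ZS02g0588900), ranged only from 39.7 to 60.7 FPKM. CDKD-1 (ZS05g0401400), a CDK-activating kinase, ranged from 11.7 to 18.7 FPKM, and CDKC-1 (ZS05g0399600), a kinase of the transcription machinery, from 5.24 to 13.0 FPKM. Cyclin-T1-2 (ZS02g0272300), of the type that pairs with CDKC, ranged from 8.19 to 12.7 FPKM.

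P-type cyclins, relatives of the yeast phosphate-response cyclin, held 8 loci. At 3 days of darkness 4 were lower than at 1 day (background 14.5%) and 0 were higher (background 13.5%). After 60 min of light 2 were higher than in 5-day darkness (background 14.8%) and 0 were lower (background 12.8%). After 24 h 0 were higher (background 11.6%) and 0 were lower (background 14.4%). Cyclin-P2-1 (ZS04g0660200) had the largest dark difference among members that were not listed at 0. It stood at 32.1, 1.77 and 2.85 FPKM at 1, 3 and 5 days of darkness and 4.39, 6.20 and 5.81 FPKM at 30 min, 60 min and 24 h in light, a log2 difference of -3.58 between 3 days and 1 day of darkness, and passed 2-fold in no light comparison with 5-day darkness. Cyclin-P4-1 (ZS10g0455200) was lowest at 5 days of darkness, with 0.394 FPKM there, 5.38 FPKM at 1 day and 3.93 FPKM after 60 min of light. One of the cyclin-P4-1-like loci (ZS05g0291000) stayed between 8.81 and 12.3 FPKM. Of the cell division control proteins, the homolog of protein 6 (ZS01g0709300), which loads the replicative helicase on origins, stood at 3.14, 1.25 and 1.65 FPKM at 1, 3 and 5 days of darkness and 2.20, 7.61 and 3.39 FPKM at 30 min, 60 min and 24 h in light. Homolog E of protein 48 (ZS10g0343300), an ATPase that extracts ubiquitin-tagged proteins and is not confined to the cell cycle, stood at 90.0, 55.0 and 46.5 FPKM at 1, 3 and 5 days of darkness and 84.8, 55.4 and 103 FPKM at 30 min, 60 min and 24 h in light. The protein 6 homolog was highest after 60 min and the protein 48 homolog after 24 h.

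**Figure D3:**
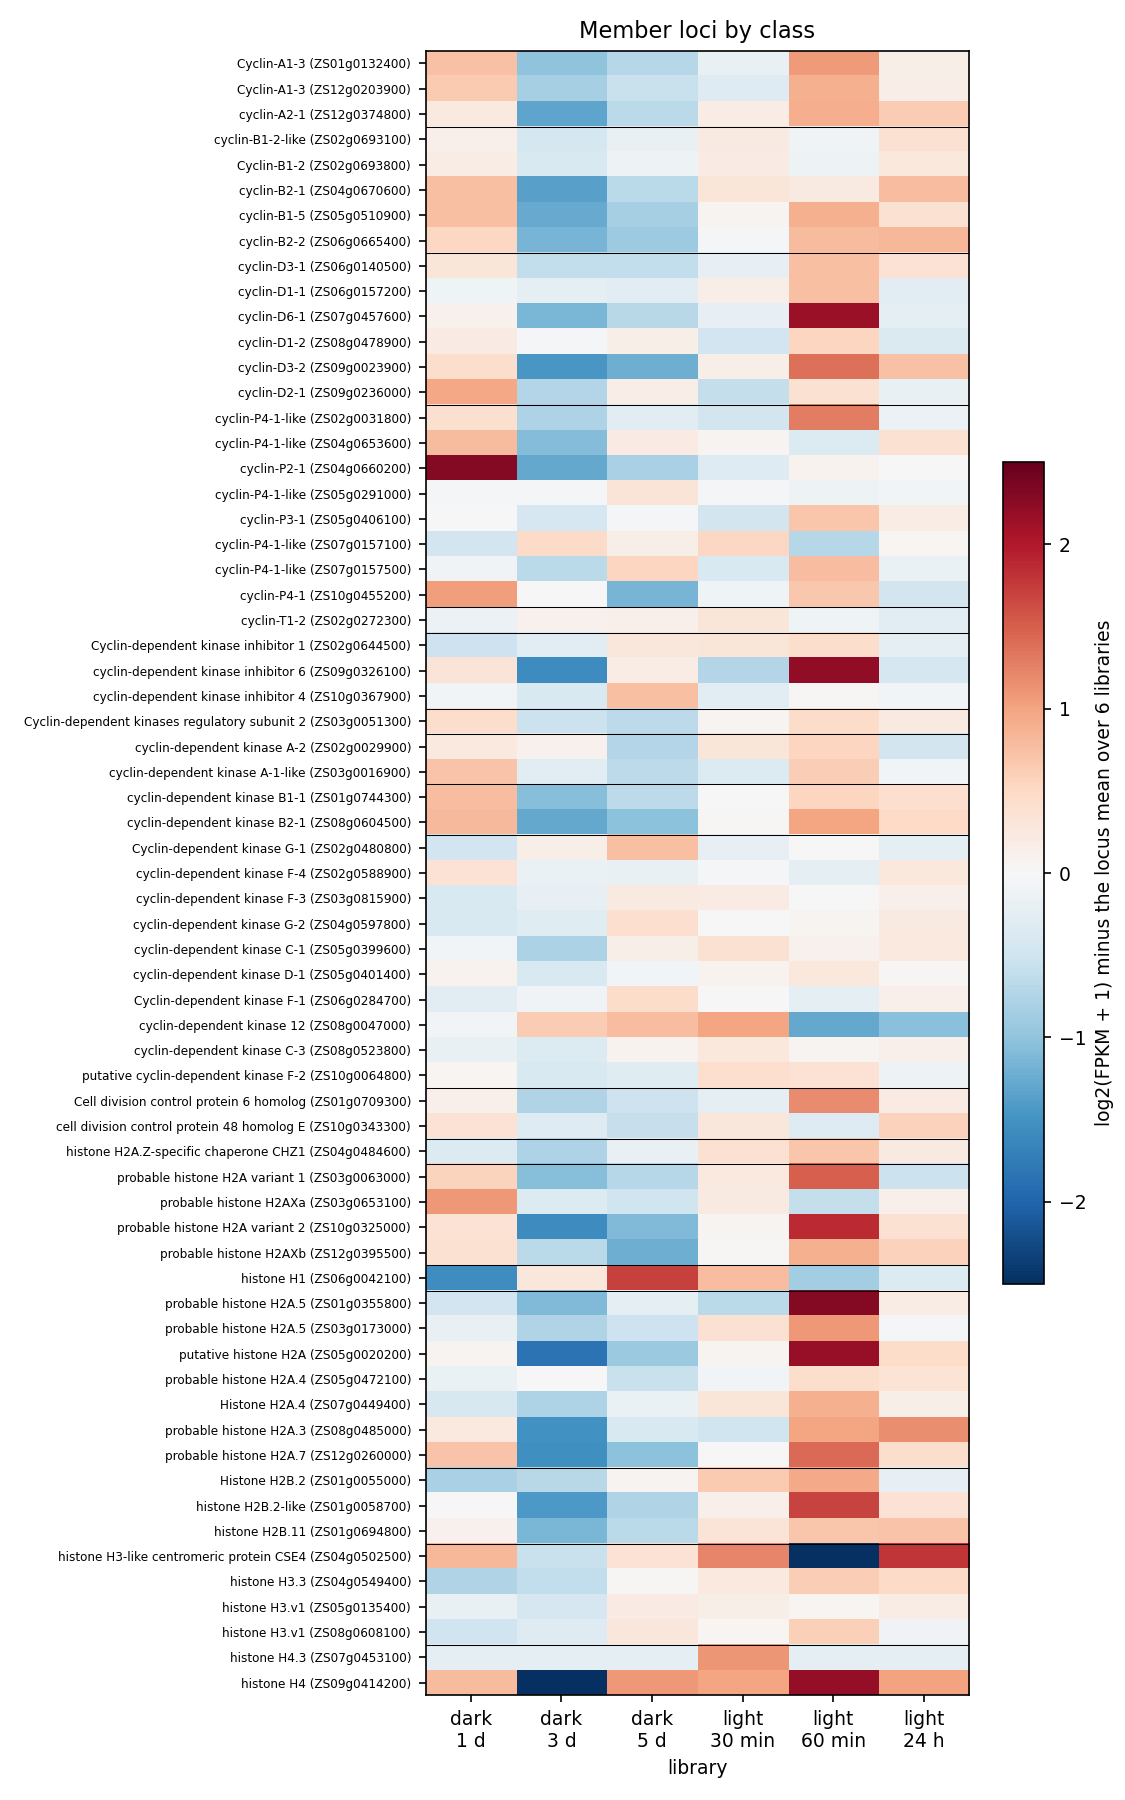
Each of the 65 loci as log2(FPKM + 1) minus its own mean over the 6 libraries, with libraries in columns, loci in rows grouped by class, and colours that saturate at the ends of the scale. The 60-min column is the highest for 34 loci and the 3-day dark column the lowest for 38, while histone H1, cyclin-dependent kinase 12 and CDKG-1 depart from that course.

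The H2A and H2B classes summed to 616, 303 and 428 FPKM at 1, 3 and 5 days of darkness and 698, 1595 and 877 FPKM at 30 min, 60 min and 24 h in light. After 60 min of light, 6 of 7 H2A loci and 2 of 3 H2B loci were higher than in 5-day darkness (background 14.8%). None was lower (background 12.8%). After 24 h, 3 of 7 H2A loci and 2 of 3 H2B loci were higher (background 11.6%) and none was lower (background 14.4%). The largest difference at 60 min was that of a locus named putative histone H2A (ZS05g0020200). It stood at 57.4, 14.5 and 28.2 FPKM at 1, 3 and 5 days of darkness and 57.1, 253 and 75.5 FPKM at 30 min, 60 min and 24 h in light. Its log2 difference was 3.12 at 60 min and 1.39 at 24 h. One H2A.5 locus (ZS01g0355800) was high at 60 min only, at 37.8, 24.2 and 44.7 FPKM at 1, 3 and 5 days of darkness and 32.6, 264 and 60.5 FPKM at 30 min, 60 min and 24 h in light. The other H2A.5 locus (ZS03g0173000) was lower throughout, at 11.1, 7.19 and 8.64 FPKM at 1, 3 and 5 days of darkness and 16.9, 28.3 and 12.5 FPKM at 30 min, 60 min and 24 h in light. At 60 min the H2A.5 locus first named stood 2.98 above its 30-min level on the log2 scale, the largest such difference among the 65 loci. H2A.7 (ZS12g0260000) already stood above 5-day darkness at 30 min (1.03), and was at 38.0, 7.28 and 10.7 FPKM at 1, 3 and 5 days of darkness and 22.9, 62.7 and 31.3 FPKM at 30 min, 60 min and 24 h in light.

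Not all H2A loci shared the 60-min maximum. H2A.3 (ZS08g0485000) was highest after 24 h, at 29.1, 7.92 and 18.4 FPKM at 1, 3 and 5 days of darkness and 16.9, 49.4 and 55.5 FPKM at 30 min, 60 min and 24 h in light. Of the loci named H2A.4, ZS07g0449400 stood at 72.2, 55.7 and 84.8 FPKM at 1, 3 and 5 days of darkness and 119, 177 and 106 FPKM at 30 min, 60 min and 24 h in light, and ZS05g0472100 at 44.9, 50.9 and 33.8 FPKM at 1, 3 and 5 days of darkness and 47.9, 68.4 and 63.6 FPKM at 30 min, 60 min and 24 h in light. The first of these passed 2-fold at 60 min (1.05), and the second lay just short of it (0.995). Among H2B loci, H2B.11 (ZS01g0694800) was the most abundant core histone in the 1-day dark, 30-min and 24-h libraries, at 213, 89.5 and 124 FPKM at 1, 3 and 5 days of darkness and 249, 319.8 and 324 FPKM at 30 min, 60 min and 24 h in light. H2B.2-like (ZS01g0058700) overtook it at 60 min, at 107, 39.2 and 62.7 FPKM at 1, 3 and 5 days of darkness and 117, 349 and 138 FPKM at 30 min, 60 min and 24 h in light. H2B.2 (ZS01g0055000) was much lower, between 5.99 and 22.6 FPKM. Where histone genes of a class are similar in sequence, the split of reads between them is uncertain. No sequences were compared, so this was not tested.

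The H2A variants replace ordinary H2A in part of the nucleosomes, and H2AX is the form phosphorylated at DNA breaks. All 4 loci were at least 2-fold lower at 3 days of darkness than at 1 day (median -1.52, background 14.5%). Between 5 and 3 days of darkness none passed 2-fold (background 14.5% higher and 4.79% lower). After 60 min of light 3 were higher than in 5-day darkness (background 14.8%), and after 24 h 2 were (background 11.6%). Variant 2 (ZS10g0325000) stood at 26.3, 6.19 and 8.98 FPKM at 1, 3 and 5 days of darkness and 21.4, 77.4 and 26.9 FPKM at 30 min, 60 min and 24 h in light. Variant 1 (ZS03g0063000) stood at 37.0, 11.4 and 14.8 FPKM at 1, 3 and 5 days of darkness and 29.4, 71.5 and 16.8 FPKM at 30 min, 60 min and 24 h in light. Both were highest at 60 min, and at 24 h variant 1 was within 2-fold of 5-day darkness (0.17) and variant 2 above it (1.48). The H2AX pair diverged. H2AXb (ZS12g0395500) stood at 44.0, 20.9 and 14.0 FPKM at 1, 3 and 5 days of darkness and 34.6, 63.3 and 50.8 FPKM at 30 min, 60 min and 24 h in light, whereas H2AXa (ZS03g0653100) stood at 17.4, 5.92 and 5.16 FPKM at 1, 3 and 5 days of darkness and 9.15, 4.77 and 8.55 FPKM at 30 min, 60 min and 24 h in light, its highest value being that of day 1. The H2A.Z chaperone CHZ1 (ZS04g0484600) was between 0.606 and 3.38 FPKM and within 2-fold of 5-day darkness in all 3 light libraries, but more than 2-fold higher after 30 min and 60 min of light than at 3 days of darkness and after 60 min than at 1 day.

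Among H3 loci, the replacement histone H3.3 (ZS04g0549400), which is deposited outside replication as well, stood at 89.0, 97.6 and 153 FPKM at 1, 3 and 5 days of darkness and 177, 229 and 209 FPKM at 30 min, 60 min and 24 h in light and was the most abundant core histone at 3 and 5 days of darkness. It stayed within 2-fold of 5-day darkness in all 3 light libraries, but was more than 2-fold higher after 60 min and after 24 h of light than at 1 or 3 days of darkness. The pair of H3.v1 loci (ZS08g0608100 and ZS05g0135400) stayed between 9.19 and 20.7 FPKM and between 6.40 and 10.5 FPKM. The centromeric histone named CSE4 (ZS04g0502500), which marks the site of kinetochore assembly, stood at 20.9, 7.35 and 14.7 FPKM at 1, 3 and 5 days of darkness and 27.5, 0 and 41.2 FPKM at 30 min, 60 min and 24 h in light. It was thus listed at 0 in the library in which other members peaked, and at its highest in the 24-h library, 1.43 above 5-day darkness on the log2 scale. The H4 locus ZS09g0414200 stood at 116, 0 and 143 FPKM at 1, 3 and 5 days of darkness and 134, 309 and 135 FPKM at 30 min, 60 min and 24 h in light. A listed 0 may stand for an estimate that failed, and a log2 difference against it is set by the pseudocount and is no measured fold. A second H4 locus, H4.3 (ZS07g0453100), was listed at 1.51 FPKM after 30 min of light and at 0 elsewhere.

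Linker histone H1 (ZS06g0042100), which binds the DNA between nucleosomes, ran against the core histones between 3 days and 1 day of darkness and in the light. It stood at 33.4, 123 and 331 FPKM at 1, 3 and 5 days of darkness and 172, 54.8 and 79.3 FPKM at 30 min, 60 min and 24 h in light. Its level was thus highest at 5 days of darkness, and lowest at 1 day of darkness and after 60 min of light. The log2 difference was 1.85 between 3 days and 1 day and 1.42 between 5 and 3 days of darkness. Relative to 5-day darkness it was -0.94 at 30 min, -2.57 at 60 min and -2.05 at 24 h in light. Between 5 and 3 days of darkness the core histone median was above 0 as well (0.61, against 0.27 over all loci). At 24 h of light, H1 and cyclin-dependent kinase 12 were lower by more than any other member. The 20 core histones summed to 984, 469 and 808 FPKM at 1, 3 and 5 days of darkness and 1156, 2379 and 1389 FPKM at 30 min, 60 min and 24 h in light. The 3-day sum includes the H4 locus ZS09g0414200 at a listed 0.

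Other genes of the same processes, chosen by product name and outside the 65 loci, moved in the same comparisons. Of 25 DNA replication loci, 14 were lower at 3 days of darkness than at 1 day (background 14.5%) and none was higher (background 13.5%). Their median was -1.04. After 60 min of light 15 were higher than in 5-day darkness (median 1.16, background 14.8%), and after 24 h 11 (0.95, background 11.6%). After 30 min 3 were higher (background 9.49%) and 1 was lower (background 11.4%), with a median of 0.55. The higher share of 12% at 30 min lay near the background. Replication protein A 70 kDa subunit B (ZS03g0107500), which coats single-stranded DNA, stood at 33.3, 7.62 and 13.7 FPKM at 1, 3 and 5 days of darkness and 25.3, 57.9 and 32.9 FPKM at 30 min, 60 min and 24 h in light. Proliferating cell nuclear antigen (ZS02g0697400), the sliding clamp of DNA polymerases, stood at 38.9, 12.3 and 14.5 FPKM at 1, 3 and 5 days of darkness and 33.2, 50.7 and 43.0 FPKM at 30 min, 60 min and 24 h in light. Both were low at 3 and 5 days of darkness and high in the 60-min library. The background at each of these comparisons is that given above, between 9.49% and 14.8% of all loci higher in the 3 light comparisons.

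Of 30 loci for mitosis and cytokinesis, 19 were lower at 3 days of darkness than at 1 day and 1 was higher (background 14.5% and 13.5%). In light, 2 were higher at 30 min, 20 at 60 min and 12 at 24 h than in 5-day darkness, where 9.49%, 14.8% and 11.6% of all loci were, and the 30-min share of 6.67% lay below that of all loci. The mitotic checkpoint protein BUB3.3 (ZS03g0708300 and ZS03g0708250 merged), which holds mitosis until chromosomes are attached, was the most abundant, at 107, 69.7 and 78.5 FPKM at 1, 3 and 5 days of darkness and 106, 107 and 124 FPKM at 30 min, 60 min and 24 h in light. The 65-kDa microtubule-associated protein 6 (ZS09g0316800), from a family that bundles microtubules, ran the other way, at 16.9, 90.3 and 66.9 FPKM at 1, 3 and 5 days of darkness and 42.4, 16.5 and 49.0 FPKM at 30 min, 60 min and 24 h in light. Of 14 loci for E2F and DP factors, retinoblastoma-related protein, the anaphase-promoting complex and related regulators, 7 were lower at 3 days of darkness than at 1 day (background 14.5%). After 60 min and 24 h of light 5 and 4 were higher than in 5-day darkness (background 14.8% and 11.6%), and none was lower. An E2F homolog (ZS12g0060100), from the family of S-phase activators and repressors, stood at 9.82, 3.92 and 7.00 FPKM at 1, 3 and 5 days of darkness and 8.00, 22.6 and 8.35 FPKM at 30 min, 60 min and 24 h in light. Retinoblastoma-related protein 1 (ZS08g0625800) stood at 11.1, 2.46 and 2.76 FPKM at 1, 3 and 5 days of darkness and 5.98, 17.6 and 8.58 FPKM at 30 min, 60 min and 24 h in light.

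Histone chaperones, with 6 loci, had 2 lower at 3 days of darkness than at 1 day (background 14.5%), and 2 higher and 1 lower after 60 min of light than in 5-day darkness (background 14.8% and 12.8%). With so few loci nothing is read from these counts. Nucleosome assembly protein 1;1 (ZS06g0058600), a carrier of H2A and H2B, was at 54.9 FPKM after 60 min, against 65.7 FPKM in 5-day darkness. The abundant chaperone locus was therefore not at its highest in the library in which H2A and H2B were. Nucleosome assembly protein 1;2 (ZS05g0561000) stood between 36.2 and 53.7 FPKM.

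**Figure D4:**
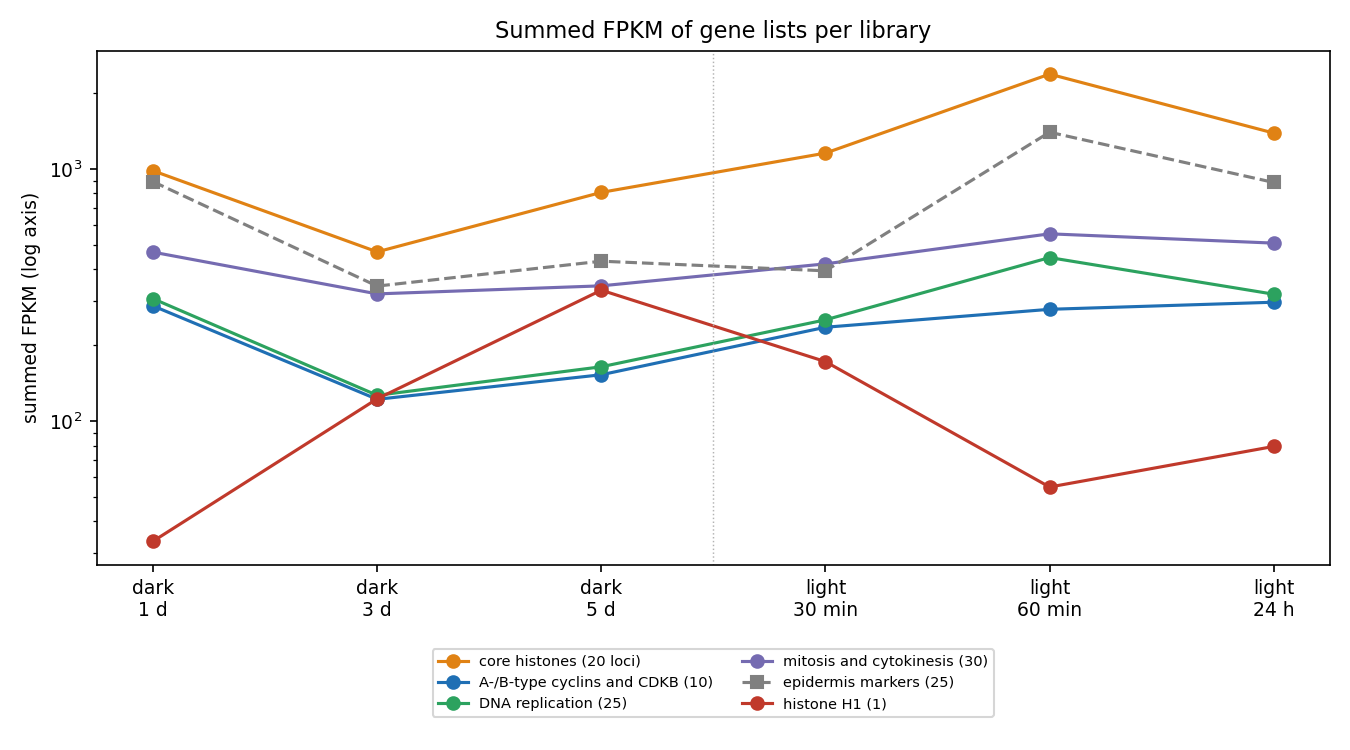
Summed FPKM of 6 gene lists in the 6 libraries on a log axis, with the epidermis markers as a dashed line and the dotted line between dark and light libraries. Core histones reach 2379 FPKM after 60 min of light and 469 FPKM at 3 days of darkness, where the H4 locus ZS09g0414200 is listed at 0. Replication and mitotic lists share the low 3-day point. The epidermis markers sum to more in the 1-day dark, 60-min and 24-h light libraries than in the other 3, and histone H1 is highest at 5 days of darkness.

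The threshold of 1 FPKM left out 8 loci with a matching name. The nearest outside were the cell division control protein 45 homolog (ZS11g0032800), with at most 0.835 FPKM, and a cyclin-P4-1-like locus (ZS07g0157300), with at most 0.824 FPKM. The nearest inside were cyclin-D1-2, with at most 1.14 FPKM, and a putative CDKF-2 (ZS10g0064800), with at most 1.17 FPKM.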

How the data were processed

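Mesocotyl poly(A) RNA was measured in 6 libraries, 1 per group. FPKM values were deposited by the authors in 1 table, loci in rows and libraries in columns, with a p-value and a q-value per locus, from the authors, that were not used. For the aligner, counter and rice build, a name is not given in the sources used here. Bowtie 0.12.2 and the mouse build mm8 are named, with no role, per the submitters' processing notes. All 65 loci carry assembler identifiers, 2 merge several gene names, and 23 have 1 transcript. None of their names matched the reference gene table (0 matches), so product names are the table's and no sequence or coordinate is printed.

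Products were matched by name. The string cyclin-B also occurs in calcyclin-binding protein, which is no cyclin and was left out. From the FPKM values, log2 differences with a pseudocount of 1 were computed over the 23787 loci with a maximum of at least 1 FPKM, and differences of 2-fold or more were counted, beside the share of all loci (pandas 2.3.3, numpy 2.4.6). The counting code was run on simulated data with large changes at well-expressed loci and little noise, where it could hardly fail. That run checks the code and says nothing of how exact the counts are here. Total depth is unknown, so no counting interval is given. With 1 library per group no test was possible.

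The members, lists and marker sets were chosen with earlier results of these data known. Members were named from the up to 4 most abundant per class and the 4 most extreme per direction and comparison. Members listed at 0 in 1 library and at 10 FPKM or more in another were added. Not every locus that met this rule is described. The markers protodermal factor 1, ZS05g0568900, ZS10g0446300, ZS10g0444600 and ZS12g0195100 and, among members, ZS05g0291000, ZS05g0399600, ZS03g0173000, ZS06g0157200, ZS05g0401400 and ZS02g0693800 were named after their values were seen.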

Additional observations from a re-analysis of the deposited data

Results flagged for a closer look

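The centromeric histone H3 locus CSE4 (ZS04g0502500) was listed below the 5-day dark library at 1 time of light and above it at another. On the log2(FPKM + 1) scale its difference was -3.97 after 60 min and 1.43 after 24 h. It was listed at 0 FPKM after 60 min and at 41.2 FPKM after 24 h, against 14.7 FPKM in 5-day darkness. A listed 0 may stand for an estimate that failed, so the first difference is set by the pseudocount and is no measured fold. The difference between the times was not tested, since each time is 1 library.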

How the results depend on the processing

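No paired analysis was possible because every group holds 1 library. Of 108 recomputed counts of higher or lower members, 74 stayed within 1.5 times the reported count. Between 3 days and 1 day of darkness, the 1 higher locus became 2 with a pseudocount of 0.1, 2 with median-ratio scaling, 3 with library sums that leave out the top locus and 4 at a 1.5-fold rule, and the 27 lower became 17 with a pseudocount of 5. Between 5 and 3 days, 7 higher became 2 with a pseudocount of 5, 4 with either scaling and 22 at 1.5-fold, and 1 lower became 0, 2 with either scaling and 2 at 1.5-fold. After 30 min of light, 9 higher became 1 with a pseudocount of 5, 24 at 1.5-fold, 23 against 3-day and 4 against 1-day darkness, and 1 lower became 5 with a pseudocount of 0.1, 0 with 5, 7 at 1.5-fold, 0 against 3-day and 5 against 1-day darkness. After 60 min, 30 higher became 14 against 1-day darkness, and 3 lower became 7 at 1.5-fold and 5 against 1-day darkness. After 24 h, 16 higher became 26 at 1.5-fold and 2 against 1-day darkness, and 3 lower became 6 at 1.5-fold and 1 against 3-day darkness. Between 24 h and 60 min, 1 higher became 3 with a pseudocount of 0.1, 5 at 1.5-fold and 0 without members listed at 0, and 13 lower became 8 with a pseudocount of 5 and 25 at 1.5-fold. The causes of these changes were not tested. A larger pseudocount shrinks differences of low loci by construction. Raising or dropping the filter on low values kept all 12 counts within 1.5 times. Among 1368 recomputed differences of single members, 1276 kept their direction and side of 2-fold, 57 fell below it, 35 passed it and none reversed after being past it. The 1-day dark control and the omission of members at 0 were added after the data had been seen.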
